A study of Mus musculus with 12 samples.

Results

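The cytosolic ribosomal proteins are the protein parts of the ribosome that translates the mRNAs of the nucleus. They were taken by gene symbol, as names that open with Rpl (large subunit) or Rps (small subunit) and go on with a digit, an a or a p, and the Rps6k kinases, pseudogenes and like-named paralogs whose symbols end in l were left out. In gastrocnemius, the chief calf muscle, 70 of the 15570 array probes tested and 50 of the 9034 genes tested were of this kind. They were 42 probes of 30 large subunit genes and 28 probes of 20 small subunit genes. The letters matched 72 probes of 52 genes, but Rps19bp1, which binds a ribosomal protein without being one, and Rps23rg1, a retrogene copy of Rps23, were set aside with 1 probe each.

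All 12 animals were male C57BL/6J mice of 10 to 12 weeks with an implanted temperature transponder, and each gave 1 Illumina MouseWG-6 v2 array. The 6 labelled heat tolerant (TOL) and the 6 labelled heat intolerant (INT) all went through the same heat test, at a chamber temperature of 39.5 °C for at most 3 h, and muscle was taken 18 to 22 h afterwards. The labels rest on how each mouse's core temperature behaved in that test, so the groups are sorted mice and not a treatment and a control, and no unheated muscle was compared. The comparison asks whether ribosomal protein mRNAs differ between mice of the 2 labels in muscle the day after heat.

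A ribosome is assembled in the nucleolus from ribosomal RNA, transcribed mostly by RNA polymerase I, and from 1 copy of nearly every ribosomal protein, so cells make these proteins in matched amounts. The large subunit forms the peptide bond and lets the new chain out through a tunnel, and the small subunit reads the mRNA. The mRNAs of ribosomal proteins are among the most abundant of a cell, and most open with a C followed by a run of pyrimidines, the 5′ terminal oligopyrimidine (TOP) tract, through which mTOR signalling sets how much of them is translated. Arrays measure the amount of mRNA and not its translation.

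To show this shared feature, the 30 bases around the annotated start are printed for 7 members that recur below and have such a run, and for Rps12 and Rps3, which have none that begins within 5 bases of it. The sequences are from RefSeq (GRCm38.p6), 12 bases before the start and 18 from it, 5′ to 3′. Capitals mark the longest run of at least 5 C or T, counted from a C within 5 bases of the start. In Rpl7a, Rpl35, Rpl38, Rplp2 and Rps24 pyrimidines also stand directly before the capitals.
Rpl31 (chr1:39367839-39367868, + strand): cctcctcgCCTCCCCgtgacccggaagttg
Rpl7a (chr2:26910795-26910824, + strand): ccctcttCTTTCTTTCTCCagcagccgagc
Rpl35 (chr2:39005114-39005143, - strand): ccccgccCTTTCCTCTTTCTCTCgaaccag
Rpl38 (chr11:114668568-114668597, + strand): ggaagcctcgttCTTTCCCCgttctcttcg
Rplp2 (chr7:141447639-141447668, + strand): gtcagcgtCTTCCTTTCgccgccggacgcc
Rps6 (chr4:86857350-86857379, - strand): cggaagtcgggCCTCTTTTTCgtgacgcct
Rps24 (chr14:24490666-24490695, + strand): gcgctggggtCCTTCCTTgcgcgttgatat
Rps12 (chr10:23787192-23787221, - strand): cgtcatgcggccaccgccggccttttcccc
Rps3 (chr7:99483692-99483721, - strand): gcaagggtcgccgcgctgcgcggcgtcatt
Of the 50 members, 42 had at least 1 promoter entry. Such a run was found in 20 of these 42 (47.6%) and in 21.2% of all 27025 genes with an entry. An annotated start can lie some bases away from the one used in muscle, so a run that was not found within 5 bases of it does not show that the mRNA lacks the tract. In the Rps12 window a run of pyrimidines follows further on, at its end. The letters CCGGAAG, which the transcription factor GABP binds, were found on either strand, from 250 bases before the start to 50 after it, in 19 of the 42 (45.2%) and in 9.93% of all genes. The letters AAGATGGC of YY1, CACGTG of the E box and TATAAA were found in 7.14%, 11.9% and 11.9% of members and in 3.19%, 8.09% and 15.7% of all genes.

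No member differed between TOL and INT mice at an adjusted p under 0.05. By limma with Benjamini-Hochberg adjustment over all 15570 probes, 0 of the 70 member probes passed, where 129 probes (0.829%) passed in all, and the smallest adjusted p of a member was 0.221. At an unadjusted p of 0.05 or less, 2 member probes were higher in TOL mice, those being probes of Rpl31 and Rps3, where 4.61% of all probes were, and 1 was lower, a probe of Rps12, where 5.3% of all probes were. These 3 of 70 probes are 4.29%, and 9.91% of all probes passed in either direction. In 0 of the 50 genes did the 6 TOL values lie wholly above or below the 6 INT values, which 64 of 9034 genes (0.708%) did.

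The differences were small and ran in both directions. Each gene was read from the brightest of its probes, and a log2 fold change is the TOL mean minus the INT mean of log2 intensity. On that scale 26 members were higher and 24 lower in TOL mice on average, and the median was 0.0084 for members and -0.0034 for all genes. The 30 large subunit genes had a median of 0.021 (18 higher, 12 lower) and ranged from -0.19 for Rplp2 to 0.21 for Rpl31. The 20 small subunit genes had a median of -0.023 (8 higher, 12 lower) and ranged from -0.18 for Rps12 to 0.17 for Rps6. The 95% intervals reached 0.13 to 0.31 to either side of a member's estimate, with 6 mice a group. The split depends on the scaling between arrays, which is quantile normalization here. With the arrays matched on their medians only, 7 large subunit genes were higher and 23 lower, 4 small subunit genes were higher and 16 lower, the subunit medians were -0.10 and -0.12, and the median of all probes itself moved by -0.067. Before any scaling, the 95th percentile of an array's raw signal lay between 308.5 and 334.4 in INT mice and between 273.8 and 333.0 in TOL mice, with TOL 7, TOL 9 and TOL 11 the lowest at 273.8, 275.0 and 290.8. Its part in the members' values was not tested.

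**Figure D1:**
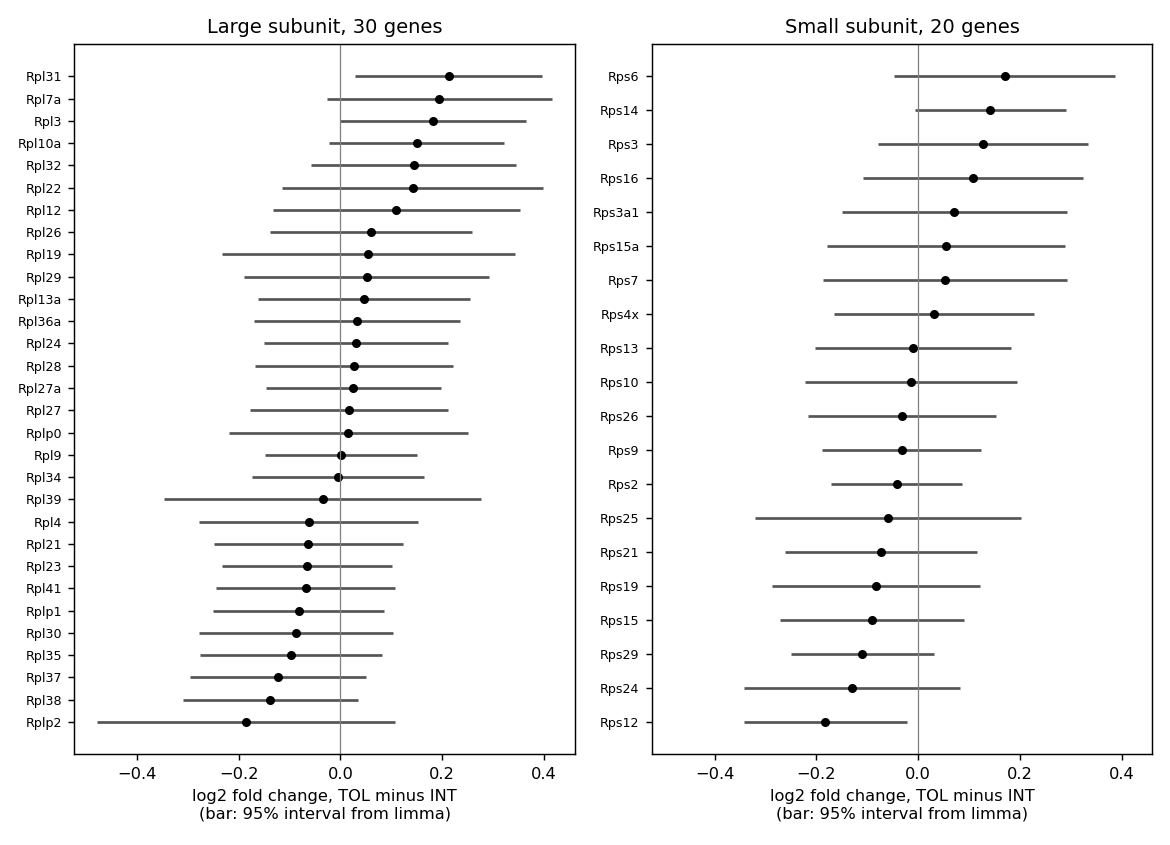
Log2 fold change of each ribosomal protein gene, TOL minus INT (x axis), as a point with its 95% limma interval, for 30 large subunit genes (left) and 20 small subunit genes (right) with 6 mice a group. The points run from -0.19 to 0.21, and the intervals of Rpl31 and Rps12 alone leave out 0.

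Rpl31, at the mouth of the exit tunnel where the new chain leaves the large subunit, had the smallest p of the large subunit. Its log2 intensity in the INT mice numbered 3, 4, 5, 7, 9 and 11 was 10.72, 10.86, 10.80, 10.70, 10.91 and 10.48, and in the TOL mice of those numbers it was 11.13, 10.91, 11.11, 10.84, 10.85 and 10.93. TOL 3, TOL 5 and TOL 11 were above every INT mouse, INT 11 was the lowest of all, and the other values overlapped. The log2 fold change was 0.21 ± 0.087 (SE, n = 6 a group), 1.16-fold higher in TOL mice, with an unadjusted p of 0.0254 and an adjusted p of 0.415 by limma. The 2 dimmer Rpl31 probes gave -0.011 ± 0.12 and -0.032 ± 0.11, so the difference was seen on 1 probe of 3. With median scaling the bright probe's log2 fold change was 0.073, and without INT 11 it was 0.16.

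The other large subunit genes with the smallest p among those higher in TOL mice were Rpl3, Rpl7a and Rpl10a. Rpl3 reaches into the centre where peptide bonds form. Its log2 intensity ran from 9.24 over a median of 9.34 to 9.63 in INT mice and from 9.43 over 9.53 to 9.73 in TOL mice. All 6 TOL mice were above the INT mean, but INT 3 was above 5 of them. The log2 fold change was 0.18 ± 0.087, with an unadjusted p of 0.0516 and an adjusted p of 0.512 by limma. Rpl7a, a protein of the outer surface, ran from 8.05 over 8.38 to 8.59 in INT mice and from 8.36 over 8.55 to 8.72 in TOL mice. Its log2 fold change was 0.19 ± 0.10, with INT 11 and INT 3 the lowest mice (adjusted p = 0.588, limma). Rpl10a, which forms the movable stalk where spent tRNA leaves, ran from 11.06 over 11.22 to 11.43 in INT mice and from 11.18 over 11.39 to 11.52 in TOL mice. The log2 difference was 0.15 ± 0.082, and 5 of 6 TOL mice were above the INT mean (adjusted p = 0.594, limma). Rpl3, Rpl7a and Rpl10a were at 0.070, 0.085 and 0.019 with median scaling.

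The large subunit genes with the smallest p among those lower in TOL mice were Rpl38, Rpl37, Rplp2 and Rpl35. Rpl38 is known from mouse embryos for its part in translating Hox mRNAs. Its bright probe ran from 12.36 over 12.48 to 12.69 in INT mice and from 12.09 over 12.42 to 12.48 in TOL mice. None of the TOL mice was above the INT mean, and TOL 11 stood well below the other TOL mice. The log2 fold change was -0.14 ± 0.082 (adjusted p = 0.626, limma), it was -0.081 without TOL 11, and its dimmer probe gave 0.018. Rpl37, a small zinc-binding protein, ran from 12.26 over 12.40 to 12.66 in INT mice and from 12.08 over 12.29 to 12.45 in TOL mice. The difference was -0.12 ± 0.082 in log2, and 1 TOL mouse was above the INT mean (adjusted p = 0.680, limma). Rpl35, another protein of the tunnel mouth, ran from 11.35 over 11.56 to 11.72 in INT mice and from 11.25 over 11.42 to 11.66 in TOL mice. Its log2 fold change was -0.097 ± 0.085 (adjusted p = 0.765, limma), with an SD within groups of 0.14. Under median scaling Rpl38, Rpl37 and Rpl35 had log2 fold changes of -0.27, -0.24 and -0.23, with unadjusted p of 0.00723, 0.0381 and 0.0279 and adjusted p of 0.234, 0.398 and 0.364 by limma.

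The P stalk is the arm of the large subunit that calls in the elongation factors, with Rplp0 at its base and Rplp1 and Rplp2 as its flexible tips. Rplp2 had the lowest log2 fold change of the large subunit, -0.19 ± 0.14 (adjusted p = 0.721, limma), and also the second largest spread of the 50 members within groups, an SD of 0.29. It was 11.84, 12.08, 12.19, 12.38, 11.87 and 11.63 in INT 3, 4, 5, 7, 9 and 11, and 11.90, 11.77, 11.81, 11.30, 12.22 and 11.89 in TOL mice of the same numbers. TOL 7 was the lowest of all 12 mice and INT 7 the highest, and the log2 fold change was -0.085 without TOL 7 and -0.11 without INT 7. Rplp1 ran from 12.79 over 12.96 to 13.18 in INT mice and from 12.76 over 12.91 to 13.05 in TOL mice, a log2 fold change of -0.082 ± 0.080. Rplp0, measured on a dim probe, had group means of 6.32 and 6.33 and a log2 fold change of 0.016 ± 0.11. None of these 3 passed the threshold (smallest adjusted p = 0.721, limma). With median scaling Rplp2 was at -0.31 and Rplp1 at -0.14, with adjusted p of 0.446 and 0.561 by limma.

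Rps12, a protein of the beak of the small subunit, had the smallest p of the small subunit genes. Its log2 intensity in INT 3, 4, 5, 7, 9 and 11 was 12.42, 12.37, 12.61, 12.36, 12.45 and 12.17, and in the TOL mice of those numbers it was 12.27, 12.16, 12.25, 12.05, 12.29 and 12.25. INT mice other than INT 11 were above every TOL mouse, and all 6 TOL mice were below the INT mean. The log2 fold change was -0.18 ± 0.076, 1.13-fold lower in TOL mice, with an unadjusted p of 0.0280 and an adjusted p of 0.429 by limma. Its second probe gave -0.079 ± 0.089, in the same direction. With median scaling the first probe's log2 fold change was -0.28 (unadjusted p of 0.0107, adjusted p of 0.270 by limma).

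Rps3 guards the channel by which mRNA enters and also takes part in DNA repair. Its dimmer probe had the smallest p of all member probes. Its log2 intensity was 7.04, 6.90, 6.96, 6.90, 6.78 and 7.14 in INT 3, 4, 5, 7, 9 and 11, and 7.40, 7.14, 7.20, 7.08, 7.32 and 7.46 in the TOL mice of those numbers. Every TOL mouse was above the INT mice other than INT 11, which lay among the lowest TOL mice. The log2 fold change was 0.31 ± 0.097, with an unadjusted p of 0.00487 and an adjusted p of 0.221 by limma. The brighter probe, which stands for the gene here, ran from 9.55 over 9.87 to 9.99 in INT mice and from 9.69 over 9.95 to 10.15 in TOL mice, with a log2 fold change of 0.13 ± 0.098 (adjusted p = 0.724, limma). Both probes were higher in TOL mice on average, by different amounts. With median scaling the dimmer probe's log2 fold change was 0.20 (unadjusted p of 0.0935, adjusted p of 0.498 by limma) and the brighter probe's was 0.036.

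**Figure D2:**
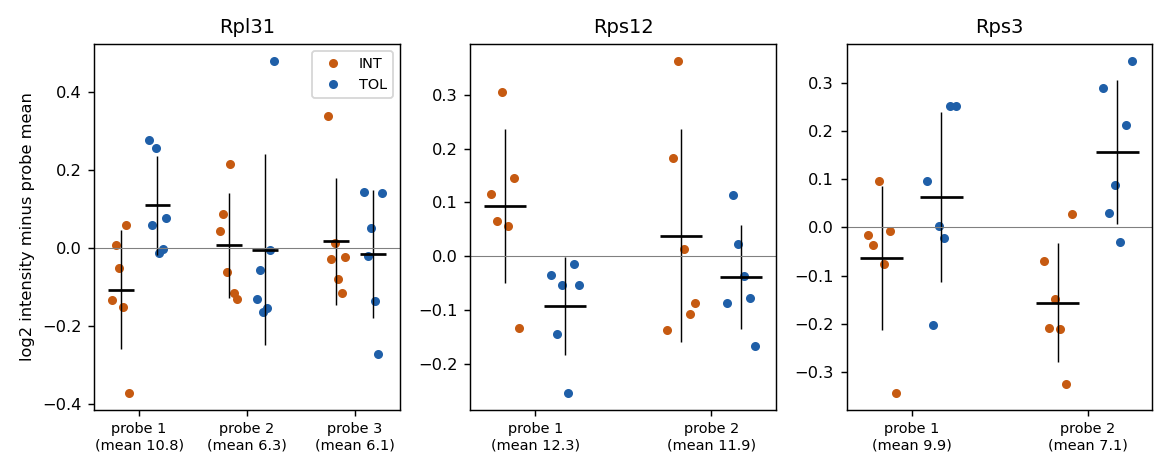
Log2 intensity minus the probe's mean over 12 mice (y axis) for each tested probe of Rpl31, Rps12 and Rps3, brightest first. Each point is a mouse, the thick line is the group mean and the thin line is ± 1 SD, and 1 probe of each gene had an unadjusted p of 0.05 or less (Rpl31 probe 1, Rps12 probe 1, Rps3 probe 2).

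Rps6, the small subunit protein that kinases downstream of mTOR phosphorylate, had the highest log2 fold change of the small subunit, 0.17 ± 0.10 (adjusted p = 0.633, limma). It ran from 9.10 over 9.33 to 9.49 in INT mice and from 9.27 over 9.45 to 9.82 in TOL mice. TOL 7 was the highest mouse and INT 7 the lowest, and the log2 fold change was 0.10 without TOL 7. Rps14, on the platform near the mRNA exit, ran from 12.05 over 12.15 to 12.37 in INT mice and from 12.22 over 12.33 to 12.42 in TOL mice. All 6 TOL mice were above the INT mean, and its log2 fold change was 0.14 ± 0.070, with an unadjusted p of 0.0592 and an adjusted p of 0.533 by limma. Rps16, whose tail touches the tRNA that carries the new chain, ran from 9.91 over 10.13 to 10.51 in INT mice and from 10.10 over 10.28 to 10.50 in TOL mice. Its log2 fold change was 0.11 ± 0.10 (adjusted p = 0.790, limma), with an SD within groups of 0.18. Rps6, Rps14 and Rps16 were at 0.054, 0.038 and 0.0035 with median scaling.

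On the lower side of the small subunit, Rps29, a zinc-binding protein of the head, ran from 12.62 over 12.85 to 12.95 in INT mice and from 12.62 over 12.70 to 12.76 in TOL mice. None of the TOL mice was above the INT mean, but INT 11 and INT 9 were as low as the TOL mice, and the log2 fold change was -0.11 ± 0.067 (adjusted p = 0.635, limma). Rps24, mutated in some people with Diamond-Blackfan anaemia, ran from 12.35 over 12.80 to 12.90 in INT mice and from 12.31 over 12.62 to 12.73 in TOL mice. Its log2 fold change was -0.13 ± 0.10 (adjusted p = 0.731, limma), and its dimmer probes gave 0.088 and -0.015. Without INT 11 the bright probe was at -0.20 (unadjusted p of 0.0424, adjusted p of 0.521 by limma), and without TOL 7 at -0.072. Rps15, whose tail reaches the decoding site, ran from 9.50 over 9.77 to 9.95 in INT mice and from 9.59 over 9.65 to 9.78 in TOL mice. With a log2 fold change of -0.091 ± 0.086, the TOL values lay inside the INT range. Under median scaling the log2 fold changes of Rps29, Rps24 and Rps15 were -0.23, -0.22 and -0.19, with adjusted p of 0.296, 0.482 and 0.488 by limma, and that of Rps29 had an unadjusted p of 0.0152.

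Some members are widely used as reference genes in quantitative PCR, on the premise that they do not vary. Of the 5 listed, Rps18 was not analysed here, and the log2 fold changes were 0.016 for Rplp0, 0.046 for Rpl13a, 0.055 for Rpl19 and 0.14 for Rpl32, none past the threshold (smallest adjusted p = 0.676, limma). Their 95% intervals were -0.22 to 0.25, -0.16 to 0.26, -0.23 to 0.34 and -0.057 to 0.35. The signs of the first 3 turn with median scaling, to -0.083, -0.051 and -0.061, and Rpl32 is then at 0.010. Rpl19 had the third largest spread of the members within groups (SD 0.26), from 7.98 in INT 11 to 8.60 in INT 5 and from 7.88 in TOL 7 to 8.74 in TOL 9. Rpl13a ran from 6.04 to 6.32 in INT mice and from 6.08 to 6.22 in TOL mice other than TOL 11, which was at 6.59. Rpl32 was held between 10.96 and 11.19 in TOL mice and ran from 10.65 in INT 7 to 11.28 in INT 3 in INT mice. The probes of Rplp0 and Rpl13a were dim, with raw signals of 119.4 to 148 and 115.4 to 142.5. The median raw signal of an array was 71.5 to 74. Raw signals were 259.7 to 481.7 for Rpl19 and 1756 to 2616 for Rpl32. The small log2 fold changes of Rplp0 and Rpl13a therefore do not show that their mRNAs were steady, and the part of dim signal in them was not tested. The largest spread of any member was that of Rpl39, a small protein that lines the exit tunnel, with an SD of 0.30. It ran from 10.16 to 10.84 in INT mice and from 9.99 in TOL 4 to 10.97 in TOL 3 in TOL mice, and its log2 fold change of -0.035 ± 0.15 was near 0.

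The members not named so far lay within the same range. Among large subunit genes higher on average in TOL mice, Rpl22, Rpl12, Rpl26, Rpl29, Rpl36a, Rpl24, Rpl28, Rpl27a, Rpl27 and Rpl9 had log2 fold changes from 0.14 for Rpl22 down to 0.00080 for Rpl9. Among those lower on average, Rpl34, Rpl4, Rpl21, Rpl23, Rpl41 and Rpl30 went from -0.0048 for Rpl34 to -0.086 for Rpl30. In the small subunit, Rps3a1, Rps15a, Rps7 and Rps4x lay between 0.071 and 0.031, and Rps13, Rps10, Rps26, Rps9, Rps2, Rps25, Rps21 and Rps19 between -0.0096 and -0.083. The median SD within groups was 0.15 over the 50 members and 0.17 over all genes. A further 6 genes on the array, Rpl6, Rpl14, Rpl17, Rps20, Rps23 and Rpsa, were not detected on enough arrays to be tested, and 21 ribosomal protein genes of the gene table, among them Rpl5 and Rpl11 of the 5S particle, were not analysed here.

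Grouped by the places they hold in the ribosome, 0 of the members passed the adjusted threshold, and most groups held genes of both directions. At the tunnel mouth, 5 of 7 listed genes were tested, with 3 higher and 2 lower and a median log2 fold change of 0.055. Of the genes at the mRNA entry and decoding site, 3 of 4 were tested (1 higher, 2 lower, median -0.042), of the beak 2 of 3 (both lower, median -0.098) and of the platform 3 of 6 (2 higher, 1 lower, median 0.071). Of 6 genes known for roles in the control of translation (Rps6, Rpl13a, Rpl10a, Rpl38, Rps25 and Rpl22), 4 were higher and 2 lower, with a median of 0.094. The 20 genes with a pyrimidine run at the start had a median of -0.0092 (9 higher, 11 lower), and the 22 without one had a median of 0.016 (13 higher, 9 lower). The 19 genes with the GABP letters had a median of -0.031 (7 higher, 12 lower), and the 23 without them had one of 0.027 (15 higher, 8 lower). These are descriptions over few genes, beside a median of -0.0034 over all genes.

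Where a gene had more than 1 tested probe, the probes did not always share a sign. Of the 50 genes, 35 had 1 tested probe, 10 had 2 and 5 had 3, and in 9 of the 15 genes with several the log2 fold changes did not share a sign. The same share was not counted over all genes, so this is not shown to be particular to ribosomal proteins. Signs of differences near 0 turn easily, and some probes were very dim, with means of 4.71 for Rps13, 4.35 for Rps19 and 4.45 for Rps24. Rps2, a protein of the mRNA entry site, gave -0.042 ± 0.061 on its brighter probe and 0.21 ± 0.10 on the other. Rpl31, Rpl38, Rps24, Rps13, Rps19, Rps9, Rpl21 and Rpl23 were the rest of the 9. Ribosomal protein genes have many processed pseudogenes of near-identical sequence, and which transcripts each probe binds was not checked here, so the values of members are uncertain in that respect.

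**Figure D3:**
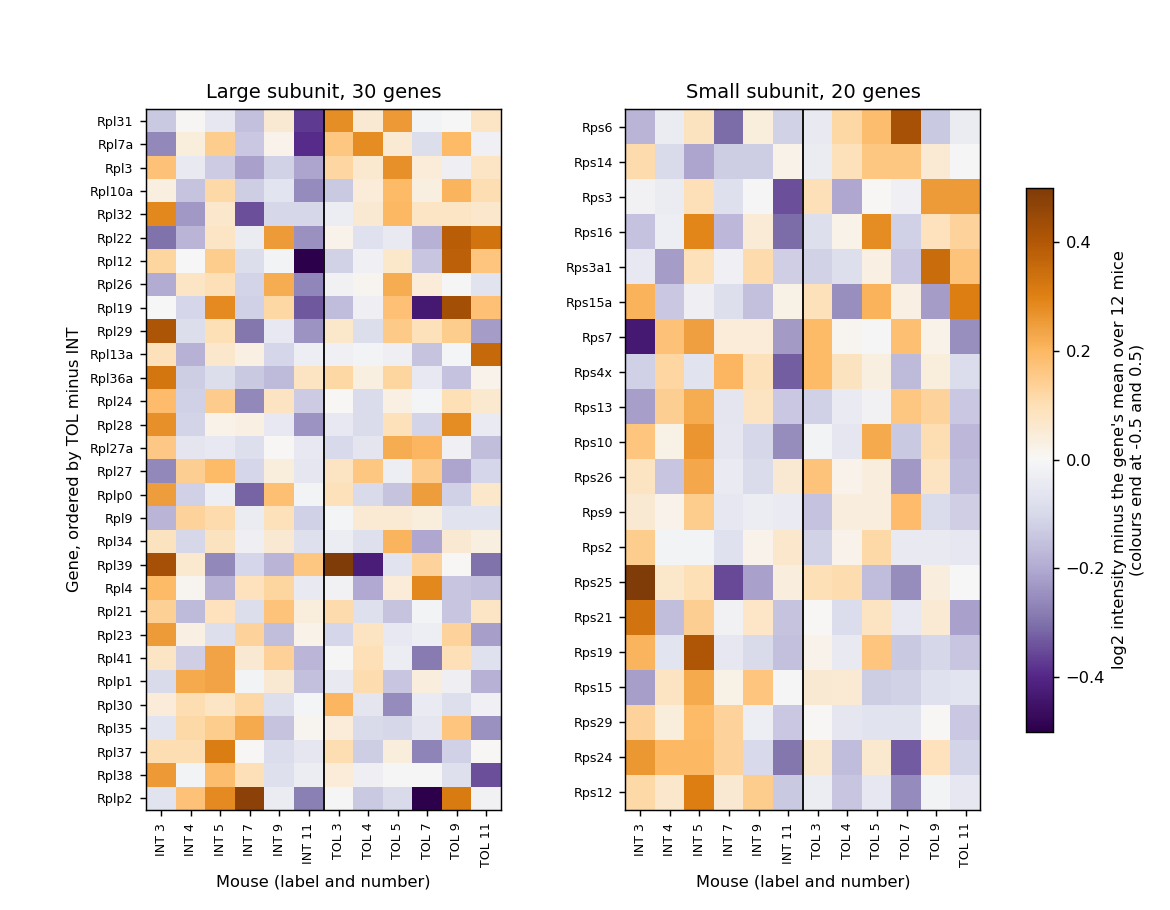
Log2 intensity minus the gene's mean over 12 mice, as colour (orange above, purple below), for 30 large subunit genes (left) and 20 small subunit genes (right), with genes ordered by log2 fold change and 1 column per mouse. In INT 5 orange prevails (38 of 50 genes above their own mean) and in INT 11 purple (10 of 50).

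The levels of both subunits varied together over the 12 mice. For each mouse, the level of a subunit was taken as the median over its genes of the log2 intensity minus that gene's mean over 12 mice. In the large subunit it was 0.098, -0.028, 0.092, -0.079, -0.0027 and -0.11 in INT 3, 4, 5, 7, 9 and 11, and -0.00049, -0.024, 0.045, -0.015, -0.0020 and -0.021 in the TOL mice of those numbers. In the small subunit it was 0.092, 0.0034, 0.17, -0.053, 0.0029 and -0.13 in INT mice, and -0.00067, -0.013, 0.035, -0.093, 0.041 and -0.076 in TOL mice. INT 3 and INT 5 were the highest and INT 11 the lowest in both subunits, and the groups overlapped. Across the 12 mice the subunit levels had a Pearson r of 0.87 and a Spearman rho of 0.77, and r was 0.95 within INT and 0.63 within TOL mice. The values within a label rest on 6 mice, and no r was tested. Both levels of a mouse come from 1 array, so they share its RNA, labelling and normalization.

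**Figure D4:**
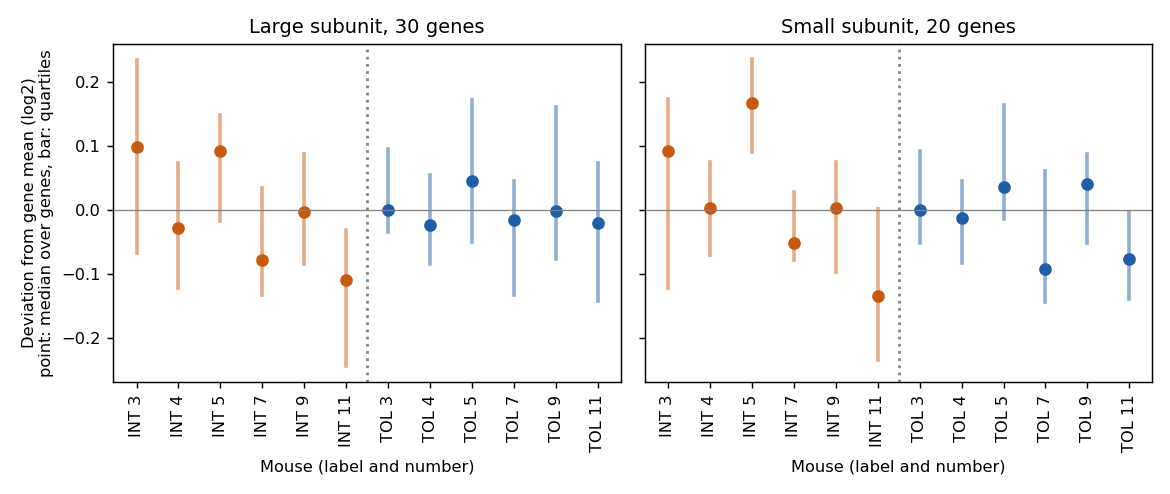
Level of each subunit in each mouse: the median (point) and quartiles (bar) over 30 large subunit genes (left) and 20 small subunit genes (right) of log2 intensity minus the gene's mean over 12 mice. The points of INT mice run from -0.11 to 0.098 (left) and -0.13 to 0.17 (right), and those of TOL mice from -0.024 to 0.045 and -0.093 to 0.041.

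Over all 50 members the level spanned 0.23 among INT mice and 0.086 among TOL mice. Single genes showed this too, as the SD was larger in INT than in TOL mice in 32 of 50 members (64.0%) and in 44.3% of all genes. This order of the groups depends on the scaling. With median scaling the members' level spanned 0.32 among INT and 0.37 among TOL mice, with TOL 7 the lowest mouse at -0.25, and 40.0% of members and 38.3% of all genes had the larger SD in INT mice. Without INT 11 the span among INT mice was 0.16, and without INT 3 the share was 54.0% of members and 37.9% of all genes. Neither the spans nor the shares were tested. The mice numbered 3, 5 and 9 had member levels from -0.0013 to 0.11, and those numbered 4, 7 and 11 from -0.12 to -0.012, in either label. This split was read off these values and not tested. Among INT mice it was also seen in 28 genes for ribosome assembly and RNA polymerase I. Their levels were 0.037, 0.12 and 0.16 in INT 3, 5 and 9, and -0.090, -0.13 and -0.062 in INT 4, 7 and 11. Among TOL mice they were -0.036, 0.12 and 0.0090, and -0.11, -0.067 and -0.0026, so TOL 3 lay among the second set. With median scaling the members' sets overlapped, as INT 4 and INT 7 were at 0.050 and 0.018 and INT 9 and TOL 9 at 0.0061 and -0.092. Mice 3 and 5 were still the highest of each label, at 0.11 and 0.23 in INT and 0.019 and 0.12 in TOL mice.

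The members' log2 fold changes also differed with the brightness of their probes, in bins set after the values were seen. Probes of the same gene can differ in brightness, as those of Rpl23 did, with means from 12.93 to 6.40. Brightness alone is therefore not a measure of how much of a protein's mRNA there was. Of 11 member probes with a mean log2 intensity over 12, 2 were higher and 9 lower in TOL mice, with a median of -0.082, where 116 other probes of that brightness had a median of 0.0020. The 9 were probes of Rps12, Rpl38, Rps24, Rpl37, Rps29, Rplp1, Rpl41, Rpl23 and Rps2, and the 2 were those of Rps14 and Rpl9. Of 10 member probes between 8 and 10, 9 were higher and 1 lower, with a median of 0.094, where 1607 other probes had one of -0.0035. Between 10 and 12 the 27 member probes were near even, with 14 higher and 13 lower and a median of 0.017. The pattern was not tested, and with median scaling it shifted down, to a median of -0.0050 between 8 and 10 and of -0.15 over 12.

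**Figure D5:**
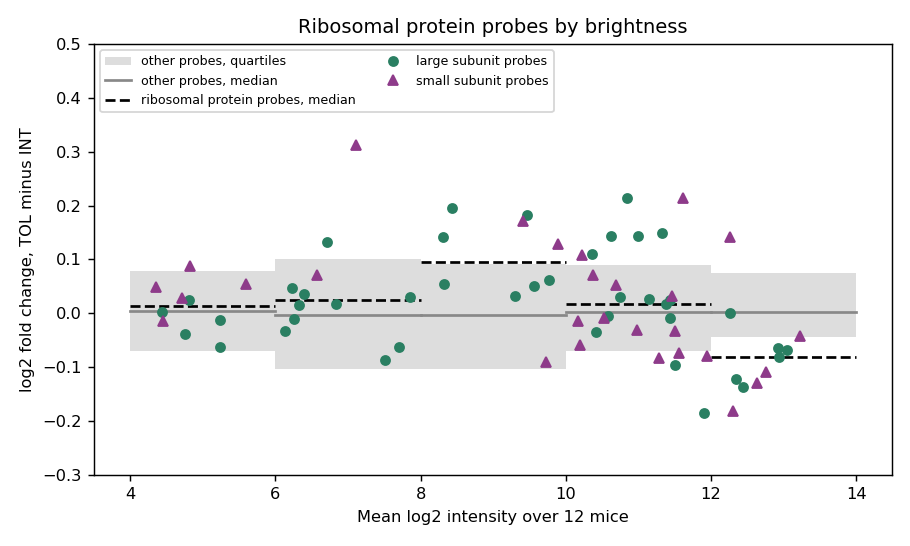
Log2 fold change of each of the 70 ribosomal protein probes, TOL minus INT (y axis), against the probe's mean log2 intensity over 12 mice (x axis). Dashed lines are medians of the ribosomal protein probes in each bin, and the grey band and line are quartiles and median of all other probes. Over 12 the dashed line is at -0.082 and between 8 and 10 at 0.094.

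Genes that work around the ribosome also ran in both directions. Of 15 other mRNAs with a TOP tract, such as elongation factors, 14 were tested, and 8 were higher and 6 lower with a median log2 fold change of 0.021. The genes with the smallest p among them were Hnrnpa1, an RNA-binding protein, with a log2 fold change of 0.20 (adjusted p = 0.442, limma), and Eef2, which moves the ribosome along the mRNA, with -0.40 (adjusted p = 0.621, limma). Of 35 genes for ribosome assembly and RNA polymerase I, 28 were tested, and 11 were higher and 17 lower with a median of -0.061. By their brightest probes, those with the smallest p were Nop10 and Nop58, proteins of small nucleolar RNA particles, with log2 fold changes of 0.25 and -0.45 (adjusted p = 0.367 and 0.369, limma). Of the list's 40 tested probes 1 passed the threshold, where 0.829% of all probes did. It was a dimmer probe of Polr1a, the largest subunit of RNA polymerase I, lower by 0.77 ± 0.13 in log2 in TOL mice (adjusted p = 0.00513, limma). The array holds 5 Polr1a probes, and the brightest tested one gave -0.15 (adjusted p = 0.731, limma).

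Of 8 paralogs with like names, 6 were tested, with 2 higher and 4 lower and a median of -0.024. Rpl3l, which stands in for Rpl3 in striated muscle ribosomes, ran from 12.92 over 13.03 to 13.07 in INT mice and from 12.84 over 12.89 to 13.01 in TOL mice. All 6 TOL mice were below the INT mean, and its log2 fold change was -0.097 ± 0.060 (adjusted p = 0.641, limma), while that of Rpl3 was 0.18. Rps4l, a paralog of Rps4x measured on a dim probe, ran from 4.37 to 4.70 in INT mice and from 4.69 to 4.92 in TOL mice, with a log2 fold change of 0.25 ± 0.075, an unadjusted p of 0.00390 and an adjusted p of 0.198 by limma. Of the pair set aside, Rps23rg1 was at 0.25 ± 0.097 and Rps19bp1 at -0.18 ± 0.082, with unadjusted p of 0.0201 and 0.0445 and adjusted p of 0.383 and 0.493 by limma, so counting them as members would add 1 higher and 1 lower probe to the 3 at an unadjusted p of 0.05 or less.

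All 10 markers of fast skeletal muscle were detected on all 12 arrays, with a median log2 fold change of -0.0098, and those of lymphocytes were not detected on enough arrays to be tested. Markers of slow fibres were lower in TOL mice on average in 9 of 9 genes, with a median of -0.69, 0 of them past an adjusted p of 0.05 by limma. At an unadjusted p of 0.05 or less by limma were 9 of their 18 tested probes (50%), all lower, where 9.91% of all probes were. The level of these markers per mouse ran from -0.37 to 1.53 in INT and from -1.05 to 0.55 in TOL mice. Over the 12 mice, the level of the ribosomal protein genes had an r of 0.54 with that of all tested genes. With the 1567 other genes of a mean log2 intensity of 8 or more, r was 0.12. It was 0.62 with ribosome assembly genes and 0.065 with the 14 other mRNAs with a TOP tract. Among cell markers, r was -0.14 for slow fibres, -0.48 for fast muscle and 0.44 for macrophages (9 of 10 tested). For fibroblasts (7 genes) it was -0.33, for erythrocytes (2 genes) -0.35, for adipocytes (4 genes) 0.40 and for endothelium (7 genes) 0.22. The part of these cells in the members' levels was not tested, and in whole muscle fewer cells of a type and less RNA per cell cannot be told apart. The arrays were alike in raw median signal, which was 71.5 to 74.0 in all 12 mice, and detected 15179 to 17017 probes each. TOL 11 stood somewhat apart, with a mean correlation with the other arrays of 0.973 where the others had 0.981 to 0.987.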

How the data were processed

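Total RNA of gastrocnemius from 12 mice was hybridized to Illumina MouseWG-6 v2 arrays, 1 for each mouse, and mice were grouped by the sample titles, since the description field calls all 12 heat intolerant. The authors read the images with GenomeStudio, in a version the sources used here do not give, and their deposited table holds the average intensity of 45281 probes on each array, not normalized, on a linear scale. The deposited detection p-value beside each intensity compares the probe with negative control beads. The authors' second deposited table, of processed intensities from a program the sources used here do not name, served as an alternative only.

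In limma 3.58.1 (R 4.3.3), the neqc function (offset 16) subtracted the background inferred from the detection p-values and quantile normalized the arrays on the log2 scale. A probe was tested if 6 or more of the 12 arrays had it at a detection p below 0.05, and lmFit and eBayes (trend) compared TOL with INT, with Benjamini-Hochberg adjustment over all probes and a threshold of 0.05. Genes were named from the platform annotation, in which 34885 probes have 1 symbol, 18 several and 10378 none. Single mice are the replicates, and their number limits the precision. The sources used here do not say on which chip each array lay. The limma fit was tested on simulated log2 values, drawn independently for each probe. The background correction, normalization and filter were not tested in this way. Values by mouse or group ranges are given for 22 genes, namely the 4 members of each subunit and direction with the smallest p, the 3 with the largest SD within groups, qPCR reference genes, the P stalk, Rps6, and genes whose probes differ in sign with 1 at an unadjusted p of 0.05 or less. Rps2, Rpl3l, Rps4l, Rps23rg1 and the Polr1a probe were named after their values were seen, and Rps23rg1 was set aside after the files were read. The members and lists were chosen with earlier results of these data known. Alternatives were other background corrections, an offset of 50, median scaling, the second table, other filters, array weights, mouse number as a block, the methods' t-test, the mean of a gene's probes and leaving out each mouse. Promoter sequences are from RefSeq (GRCm38.p6). Which transcripts each probe binds was not checked.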

Additional observations from a re-analysis of the deposited data

Results flagged for a closer look

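Of 48 groups of 6 mice examined (22 genes and the 2 subunit levels, in each label), 3 held a mouse far from the other 5, by Dixon's ratio of the gap to the group's whole range at its 95% critical value. Chance gives such a gap in about 1 of 20 groups. In TOL 11, Rpl38 had a log2 intensity of 12.09, where the other 5 TOL mice had 12.36 to 12.48. In the same mouse Rpl13a had a log2 intensity of 6.59, where the others had 6.08 to 6.22. In TOL 5 the level of the large subunit, the median over 30 genes of log2 intensity minus each gene's mean, was 0.045, where the other TOL mice had -0.024 to -0.00049.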

How the results depend on the processing

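No member probe passed an adjusted p of 0.05 by limma or by the methods' t-test in any of 22 alternatives. The count at an unadjusted p of 0.05 or less was 3 (2 higher, 1 lower), and it was 7 with median scaling (0 higher, 7 lower), 8 with no filter on dim probes (6 higher, 2 lower), 6 with array weights (5 higher, 1 lower), 5 with the methods' t-test (4 higher, 1 lower) and 2 to 6 with each mouse left out. It was 6 without INT 3 (5 higher, 1 lower) and without INT 5 (6 higher, 0 lower), and 5 without INT 11 and without TOL 9. In these settings, taken in that order, 8.6%, 8.6%, 7.1% and 7.1% of member probes were at that p. Of all probes, 9.6%, 8.6%, 9.3% and 8.3% were. The share of all probes at that p was 11.7% with median scaling, 6.91% with no filter, 9.53% with array weights and 9.45% with the methods' t-test, where 10.0%, 9.41%, 8.57% and 7.14% of the member probes were. Among these 22, Rpl31 stayed at or under 0.05 in 18, Rps12 in 18 and the dimmer Rps3 probe in 21.

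With median scaling the median log2 fold change was -0.10 for the large and -0.12 for the small subunit, from 0.021 and -0.023, and Rpl19 (-0.061), Rplp0 (-0.083) and Rpl13a (-0.051) turned their sign. Array weights turned Rpl39 to 0.034. With each mouse left out, the large subunit median lay between -0.0039 and 0.052, the small subunit median between -0.039 and 0.016, Rpl39 between -0.15 and 0.047, Rpl19 between -0.026 and 0.15, Rplp0 between -0.046 and 0.067 and Rpl13a between -0.020 and 0.080. With the mean of a gene's probes the small subunit median was 0.014. The cause of these shifts was not tested.

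The mouse numbers occur in both labels, but over all probes the r of same-numbered mice, after subtracting group means, was -0.0072 to 0.15, and none correlated best with its own number, so the samples were not treated as pairs. Over the 50 members that r was -0.33 to 0.24, although the members' median levels fell on the same side of the split by number given above. With the number as a replicate block, 0 member probes passed the adjusted threshold and the count at an unadjusted p of 0.05 or less was again 3, of the same 3 genes. With 6 mice a group, the members' 95% limma intervals were 0.13 to 0.31 wide on either side of the estimate.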
